A study of Mus musculus with 6 samples.

Results

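The mRNAs of 10 genes of insulin signalling and of the insulin-like growth factor (IGF) binding proteins were followed in mouse liver: Insr, Irs1, Irs2, Foxo1, Igfbp1, Igfbp2, Igfbp3, Igfbp4, Igfbp5 and Igfbp7. They were taken by symbol from a list of names, and all 10 were matched among 54232 Ensembl genes and passed the filter on low counts, which left 13986 genes. Liver RNA of male C57BL/6 mice on chow, 8 to 10 weeks old, was sequenced in 2 groups of 3 libraries. DKO mice (Fxr-/-Xbp1LKO) lacked FXR and, in the liver, XBP1. SKO mice (Fxr-/-Xbp1fl/fl) lacked FXR and carried floxed, undeleted Xbp1. All mice compared were thus FXR-null, and each change is relative to SKO. How the liver deletion was driven, the feeding state at collection and the time of day were not given in the sources used here. Titles of 3 DKO libraries and 1 SKO library carry a pair of numbers, which may be pooled animals. No label ties a library to its own animal, so the p-values hold for the spread among these libraries, part of which may be technical.

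Insulin binds its receptor on hepatocytes, the receptor phosphorylates the adaptors IRS1 and IRS2, and PI3-kinase and AKT then act downstream. AKT phosphorylates the transcription factor FOXO1, which leaves the nucleus, so that FOXO1 targets such as Igfbp1 are high in fasting and low after a meal. IGF-binding proteins are secreted carriers that hold IGF1 and IGF2 away from their receptor or lengthen their stay in blood, and the liver is a main source of several of them. XBP1 drives genes of the unfolded protein response (UPR) of the endoplasmic reticulum (ER), and IRE1 splices its mRNA into the active form.

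Total counts were 18382107 to 21107674 per DKO library and 16966422 to 20211285 per SKO library. Values below are counts-per-million (CPM) scaled with TMM factors, and a gene was called at an edgeR quasi-likelihood adjusted p under 0.05. Xbp1 was at 95.8, 67.1 and 68.3 CPM in DKO and at 225, 261 and 255 CPM in SKO (log2 -1.68 ± 0.14, SE; edgeR adjusted p = 0.000146). Nr1h4, which encodes FXR, averaged 97.4 ± 3.35 CPM in DKO and 98.6 ± 5.94 CPM in SKO (SD, n = 3 each), and without knowing which exons its null allele lacks this does not check the genotype. DKO replicate 1 lay apart from the other DKO libraries on the first principal component, at -35.2 against -14.5 and -20.3, while SKO lay at 21.2 to 26.8. In bulk liver, fewer cells of a type and less RNA per cell cannot be told apart. Summed CPM of the fixed marker lists was 57572 to 70779 in DKO against 85068 to 112070 in SKO for hepatocytes (10 genes, led per kilobase by Alb and Apoa1), and 593 to 620.2 in DKO against 605 to 624 in SKO for endothelium (12 genes, led per kilobase by Clec4g and Oit3). None of the genes of the marker lists was at 0 in all libraries.

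Of the 10 genes, 3 were called higher in DKO and 2 lower, so 5 of 10 were called, against a background of 20% of all genes tested (10.3% higher and 9.7% lower). These genes, and the lists set against a background below, were chosen with earlier results of these data known. A share above the background is therefore a description and not a test. All 5 called genes encode IGF-binding proteins, and edgeR, DESeq2 and limma-voom each called 0 of the 4 genes of the insulin receptor to FOXO1 route, of which 2, Insr and Irs2, had an unadjusted edgeR p under 0.05. The same 5 were the members whose DKO and SKO libraries did not overlap, against a background of 39.6% of all genes (20.2% with DKO above SKO and 19.4% with DKO below). With 3 libraries a group the smallest two-sided p of an exact permutation test is 0.1, which each of these 5 reached. Without DKO replicate 3, 1 member was called higher, and 1 was called lower on leaving out any library but SKO replicate 1, without which 3 were. The median log2 fold change was 0.02 over the members and 0.006 over all genes tested. Igfbp2 and Igfbp7 were called in all 13 other fits tried, in which a library was left out or the scaling, filter or test was changed.

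Promoter windows of the genes around FOXO1 show where its textbook element lies. FOXO1 binds insulin response elements, of which the pair in the Igfbp1 promoter is the classic example. RefSeq windows of GRCm38.p6, from 250 bases before the annotated start to 50 after it, were found for 9 of the 10 genes, all but Insr. Both strands were searched for TGTTTTG, for TATTTTG, the form of the other arm of the Igfbp1 element, and for the FOXO core TGTTTAC. The windows of Igfbp1 (chr11:7197537-7197836, plus strand), Irs1 (chr1:82291390-82291689, minus strand) and Irs2 (chr8:11008880-11009179, minus strand) held a match and are shown 5′ to 3′, with the matches in capitals.
Igfbp1: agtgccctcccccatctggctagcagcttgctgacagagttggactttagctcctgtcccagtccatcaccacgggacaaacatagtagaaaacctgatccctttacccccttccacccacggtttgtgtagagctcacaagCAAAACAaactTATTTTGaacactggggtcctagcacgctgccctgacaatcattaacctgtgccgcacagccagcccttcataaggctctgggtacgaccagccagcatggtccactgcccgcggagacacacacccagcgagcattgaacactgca
Irs1: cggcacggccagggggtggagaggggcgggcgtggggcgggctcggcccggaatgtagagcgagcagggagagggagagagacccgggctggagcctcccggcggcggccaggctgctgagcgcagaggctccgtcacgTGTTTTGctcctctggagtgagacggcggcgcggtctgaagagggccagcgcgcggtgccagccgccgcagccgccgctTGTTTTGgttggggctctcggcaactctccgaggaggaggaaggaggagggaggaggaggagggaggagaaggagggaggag
Irs2: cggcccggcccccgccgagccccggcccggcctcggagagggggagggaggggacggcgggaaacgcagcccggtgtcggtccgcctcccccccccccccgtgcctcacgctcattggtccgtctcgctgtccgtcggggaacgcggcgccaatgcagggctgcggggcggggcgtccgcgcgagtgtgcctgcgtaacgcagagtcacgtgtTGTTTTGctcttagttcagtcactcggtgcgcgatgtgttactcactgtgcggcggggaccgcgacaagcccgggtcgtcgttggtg
In Igfbp1 the matches form an inverted pair at positions -108 to -102 and -97 to -91 relative to the start site, which is counted as 0. Irs1 held TGTTTTG at -111 to -105 and at -32 to -26, and Irs2 held it at -37 to -31. An E-box, CACGTG, lies at -115 to -110 in Irs1, where it overlaps the match, and at -44 to -39 in Irs2, just before it. Over all 32851 windows of the table, TGTTTTG was in 6.28%, TATTTTG in 4.36%, TGTTTAC in 3.65% and CACGTG in 7.15%. The E-box was also in an Igfbp2 window, at -142 to -137. The ER stress response element, CCAAT and CCACG with 9 bases between them (0.119% of windows), the UPR core TGACGTG (2.01%) and the ATF4 element TGATGCAA (0.895%) were not among the letters of the members' windows. A match describes the letters and does not show binding.

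The receptor and its adaptors did not pass the test. Insr, the insulin receptor gene (chromosome 8, 3122061 to 3279617 in mm10), was at 169, 199 and 194 CPM in DKO and at 193, 247 and 249 CPM in SKO. SKO replicate 1 lay within the DKO range, and the other SKO libraries lay above it. The log2 fold change was -0.30 ± 0.11 (SE; 95% interval -0.55 to -0.04; edgeR adjusted p = 0.0932). On leaving out SKO replicate 1 it was -0.41 and Insr was called lower (edgeR adjusted p = 0.0237), as it was without a filter on low counts (0.0155).

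Irs2, the adaptor that FOXO1 induces in fasting liver (chromosome 8, 10984681 to 11008458), was at 32.8, 23.1 and 32.2 CPM in DKO and at 17.4, 25.6 and 20.7 CPM in SKO. DKO replicate 2 lay among the SKO libraries, and the other DKO libraries lay above all of them. Its log2 fold change was 0.47 ± 0.17 (SE; 95% interval 0.07 to 0.86; edgeR adjusted p = 0.0939). Without DKO replicate 2 it was 0.61 and was called higher (edgeR adjusted p = 0.0165), as with total-count scaling (0.0201) and without a filter (0.000145).

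Irs1, the other main adaptor (chromosome 1, 82233101 to 82291416), was at 19.9, 12.2 and 16.8 CPM in DKO and at 21.6, 13.99 and 15.6 CPM in SKO, with full overlap between the groups. Its log2 fold change was -0.06 ± 0.22 (95% interval -0.56 to 0.44; edgeR adjusted p = 0.88). Its exons share 2822 bases with Gm9747 on the opposite strand, and reads of such genes cannot be told apart unless counting used the strand, a setting not given in the sources used here. Irs2 shares 162 exon bases with 9530052E02Rik, Foxo1 674 with Gm20402 and Igfbp7 85 with Polr2b in the same way.

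Foxo1, the insulin-restrained transcription factor (chromosome 3, 52268336 to 52353221), was at 32.8, 64.2 and 64.5 CPM in DKO and at 38.8, 54.7 and 64.0 CPM in SKO. DKO replicate 1 was the lowest library of all, and DKO replicates 2 and 3 lay level with the highest SKO library. The log2 fold change was 0.03 ± 0.34, with a 95% interval of -0.83 to 0.89 that leaves room for a fall or a rise of over 1.5-fold (edgeR adjusted p = 0.959). Its mRNA level says nothing of FOXO1 phosphorylation or location, which were not measured.

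**Figure D1:**
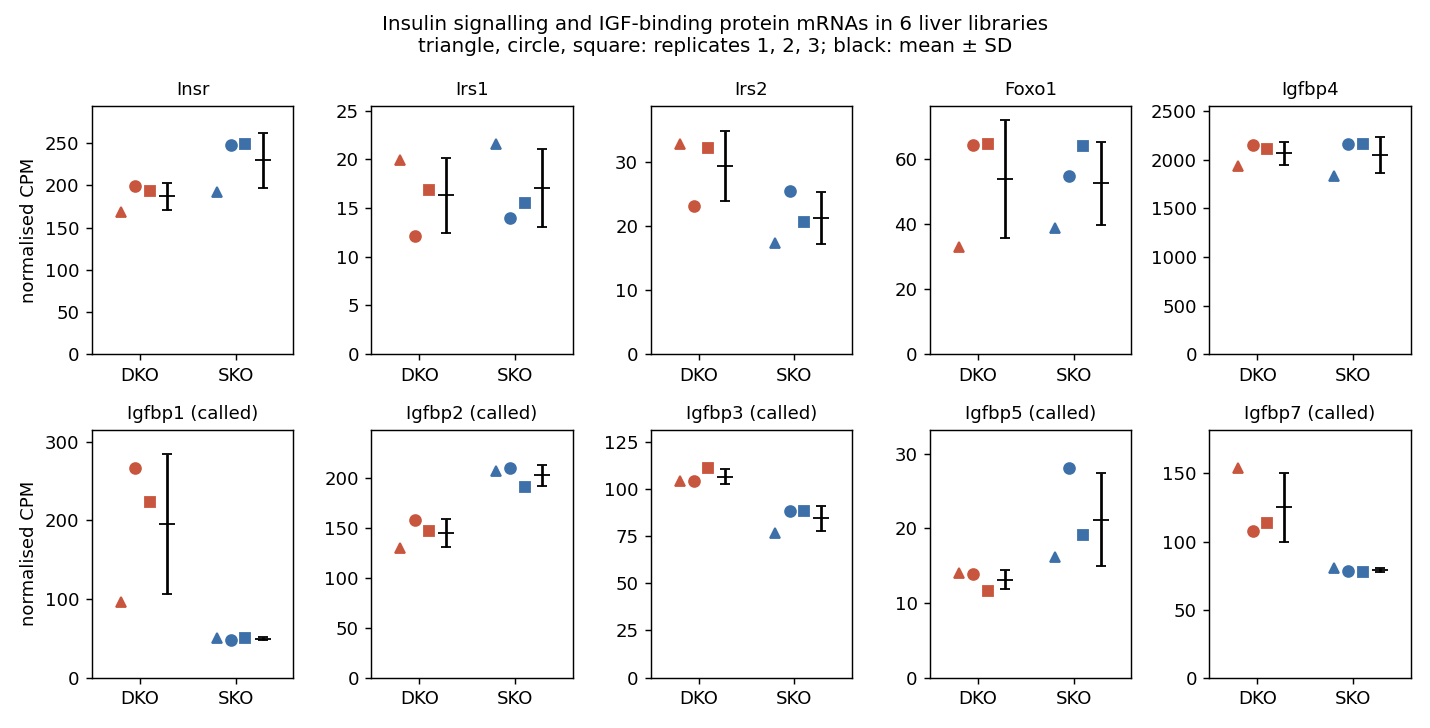
Normalised CPM of the 10 genes in each library, DKO left (red) and SKO right (blue) in every panel, with black bars for mean ± SD (n = 3). The 3 DKO libraries of Igfbp1 sit at 95.7, 267 and 223 CPM, above the SKO libraries at 48.0 to 50.8 CPM, and Igfbp2 and Igfbp5 sit below SKO in every DKO library.

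Igfbp1, the liver-secreted binding protein that insulin represses and FOXO1 induces (chromosome 11, 7197782 to 7202546), was higher in each DKO library. It was at 95.7, 267 and 223 CPM in DKO and at 50.8, 48.0 and 50.5 CPM in SKO. The SKO libraries were nearly equal, with an SD of 1.56 CPM, while the DKO libraries spread with an SD of 89.2 CPM, and DKO replicate 1 was under 0.5 times either other DKO library but still above SKO. The means of 195 CPM in DKO and 49.8 CPM in SKO differed 3.93-fold (log2 1.97 ± 0.41, SE; 95% interval 0.90 to 3.04; edgeR adjusted p = 0.0332). Leaving out any library but DKO replicate 1 ended the call (log2 1.68 to 1.99, with edgeR adjusted p = 0.0704 to 0.115), as did dropping the filter (0.0811). Without DKO replicate 1 the log2 fold change was 2.30 and Igfbp1 was called.

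Igfbp2, the next most abundant binding protein mRNA in SKO after Igfbp4 (chromosome 1, 72824503 to 72852474), was lower in DKO. Its mRNA was at 130, 158 and 147 CPM in DKO and at 207, 210.5 and 191 CPM in SKO, with a clear gap between the groups. The log2 fold change was -0.48 ± 0.09 (SE; 95% interval -0.68 to -0.28; edgeR adjusted p = 0.00579). It was -0.55 to -0.41 without any 1 library and -0.26 with total-count scaling, and it was called in each of these fits.

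Igfbp3, whose protein is the main IGF carrier of serum together with the acid-labile subunit (chromosome 11, 7206086 to 7213923), was at 104, 104 and 111 CPM in DKO and at 76.5, 88.0 and 88.4 CPM in SKO. In rodents its liver mRNA is known mainly from non-parenchymal cells. All DKO libraries lay above SKO by a small margin, and the log2 fold change was 0.34 ± 0.08 (SE; 95% interval 0.16 to 0.51; edgeR adjusted p = 0.0154). The call ended without DKO replicate 3 (log2 0.30, edgeR adjusted p = 0.0643).

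Igfbp7, a secreted protein that binds IGFs weakly and is typical of vessel walls (chromosome 5, 77349240 to 77408041), was at 154, 108 and 114 CPM in DKO and at 80.6, 78.0 and 77.9 CPM in SKO. DKO replicate 1 was highest, and the SKO libraries were nearly equal. The log2 fold change was 0.67 ± 0.13 (SE; 95% interval 0.38 to 0.96; edgeR adjusted p = 0.00797), and without DKO replicate 1 it was 0.49 and was still called.

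Igfbp5, which also binds extracellular matrix (chromosome 1, 72857932 to 72874884), was at 13.96, 13.8 and 11.6 CPM in DKO and at 16.2, 28.1 and 19.2 CPM in SKO. The gap between the lowest SKO library and the highest DKO library was small, and SKO replicate 2 stood high. The log2 fold change was -0.69 ± 0.20 (SE; 95% interval -1.14 to -0.24; edgeR adjusted p = 0.0418), and it was -0.44 on leaving out SKO replicate 2. Leaving out any library but SKO replicate 1 ended the call (edgeR adjusted p = 0.0678 to 0.121), and so did upper-quartile factors (0.057) or total counts (0.0914).

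Igfbp4, an IGF-binding protein known mostly to restrain IGF action (chromosome 11, 99041244 to 99054392), was at 1932, 2156 and 2106 CPM in DKO and at 1838, 2162 and 2159 CPM in SKO. The groups overlapped almost wholly. Its log2 fold change was 0.01 ± 0.11, and the 95% interval of -0.24 to 0.26 bounds the difference in either direction (edgeR adjusted p = 0.967).

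**Figure D2:**
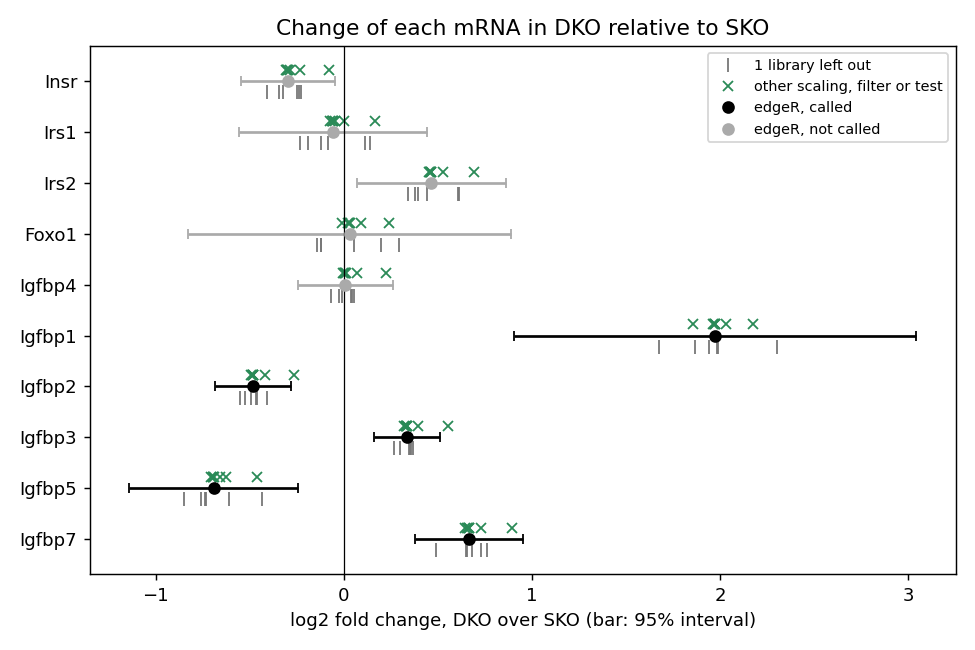
Log2 fold change of each of the 10 mRNAs, DKO over SKO, by edgeR with its 95% interval (black where called, grey where not), with ticks for fits without 1 library and crosses for other scalings, filters or tests. Igfbp1 has the largest change and the widest interval among the members, 0.90 to 3.04, while Igfbp2 and Igfbp7 were called in every fit drawn.

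Levels were compared between genes as CPM per kilobase of exon. Igfbp4 was first in both groups, at 468 ± 26.7 in DKO and 465 ± 42.2 in SKO (CPM per kilobase, SD, n = 3 each). In SKO the order then ran Igfbp2 at 110 ± 5.68, Igfbp7 at 65.2 ± 1.27, Igfbp1 at 32.6 ± 1.02 and Igfbp3 at 26.9 ± 2.16 CPM per kilobase, with no overlap between neighbours. In DKO the means ran Igfbp1 at 128 ± 58.5, Igfbp7 at 104 ± 21.0, Igfbp2 at 78.6 ± 7.60 and Igfbp3 at 34.0 ± 1.33 CPM per kilobase. The DKO libraries of Igfbp1 overlapped those of both Igfbp7 and Igfbp2, so its place there is not resolved, while Igfbp7 lay above Igfbp2 in all of them. Insr followed in both groups, at 13.6 ± 1.17 in DKO and 16.7 ± 2.34 CPM per kilobase in SKO, apart from its neighbours on either side. Foxo1 came next, at 6.22 ± 2.10 in DKO and 6.06 ± 1.47 CPM per kilobase in SKO. Irs2 stood at 4.65 ± 0.861 in DKO and 3.36 ± 0.648 in SKO, Igfbp5 at 2.19 ± 0.218 in DKO and 3.53 ± 1.03 in SKO, and Irs1 at 1.78 ± 0.425 in DKO and 1.86 ± 0.437 in SKO, each in CPM per kilobase. Libraries of neighbours overlapped in DKO for Foxo1 and Irs2 and for Igfbp5 and Irs1, and in SKO for Foxo1 and Igfbp5 and for Igfbp5 and Irs2.

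The mixture of binding protein mRNAs is given as shares of their sum. Igfbp1 made up 8.55%, 20.1% and 17.5% of the summed CPM per kilobase of the 6 Igfbp genes in DKO and 5.08%, 4.29% and 4.60% in SKO. Igfbp2 made up 9.61%, 9.80% and 9.53% in DKO and 17.1%, 15.6% and 14.3% in SKO. Igfbp4 was the largest share in every library, at 55.9% to 59.6% in DKO and 63.5% to 67.8% in SKO. A share also moves with the sum: the mean Igfbp4 level was 468 in DKO and 465 CPM per kilobase in SKO. Its lower share in DKO is thus no fall of its own level. The sum itself was 734, 874 and 834 CPM per kilobase in DKO and 655, 732 and 721 in SKO, where DKO replicate 1 lay just above the highest SKO library. These shares describe mRNA only and carry no test.

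**Figure D3:**
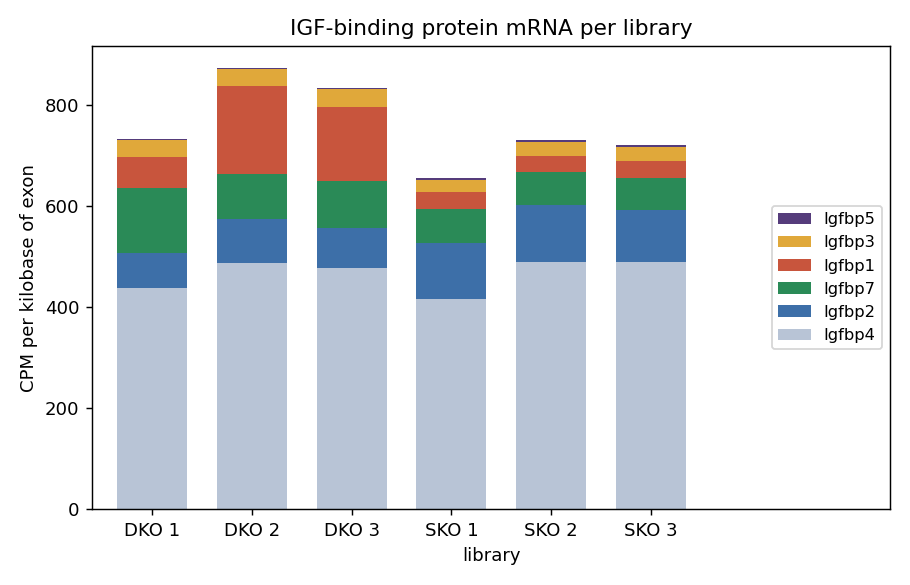
Stacked CPM per kilobase of exon of the 6 Igfbp mRNAs in each library, DKO left and SKO right. Igfbp4 fills over 0.5 of each bar, the Igfbp1 band is 8.55% to 20.1% of the bar in DKO and 4.29% to 5.08% in SKO, and the Igfbp2 band is thinner in DKO.

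The called binding protein genes lie in 2 tail-to-tail pairs and 1 single gene. Igfbp1 and Igfbp3 face each other on chromosome 11 with 3539 bases and 0 annotated genes between them, and both were called higher in DKO. Igfbp2 and Igfbp5 face each other on chromosome 1 with 5457 bases and 0 genes between them, and both were called lower. Among neighbouring tested genes of the genome that were both called, 450 of 689 pairs, or 65.3%, had the same direction. The nearest tested genes outside the pairs were looked up after these values were seen. Adcy1, an adenylyl cyclase gene 19.3 kb from Igfbp1, was called higher, at 2.40, 2.54 and 2.60 CPM in DKO and 0.445, 0.439 and 0.845 CPM in SKO (log2 2.10 ± 0.30, edgeR adjusted p = 0.00141). Tns3, 1220 kb beyond Igfbp3, was not called (edgeR adjusted p = 0.925). Rpl37a and Tns1, 111 and 1040 kb away on either side of the chromosome 1 pair, were not called either (edgeR adjusted p = 0.376 and 0.143).

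The receptor cascade was counted over a list of 28 genes from Insr to mTOR, which includes Insr, Irs1, Irs2 and Foxo1. All were tested, and 1 was higher, 2 were lower and 25 were not called, against a background of 20% of all genes called, with a median log2 fold change of -0.07. Without these members 24 genes were left, of which 1 was higher, 2 were lower and 21 were not called, with a median of -0.09. Eif4ebp1, a translation repressor that mTORC1 inactivates, was at 57.3, 49.9 and 54.8 CPM in DKO and 39.6, 38.8 and 37.1 CPM in SKO (log2 0.49 ± 0.08, edgeR adjusted p = 0.00217). Rptor, the defining subunit of mTORC1, was at 37.4, 37.5 and 38.5 CPM in DKO and 50.3, 46.6 and 48.1 CPM in SKO (log2 -0.35 ± 0.07, edgeR adjusted p = 0.00637). Akt2, the main hepatic AKT gene for insulin, averaged 54.8 ± 3.20 CPM in DKO and 63.8 ± 0.284 CPM in SKO (log2 -0.22 ± 0.07, edgeR adjusted p = 0.0463), a call that ended on leaving out any library but DKO replicate 2 and in 5 of 7 other fits (edgeR adjusted p up to 0.143 without 1 library, log2 -0.002 with total counts). Rptor lost its call with total counts (log2 -0.14). These were the called genes of the list. Higher calls were 3 without DKO replicate 2 and 2 without SKO replicate 3, and lower calls were 1 without DKO replicate 1, SKO replicate 2 or SKO replicate 3.

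Among 17 tested inhibitors of insulin signalling, of 18 listed, 2 were higher, 2 lower and 13 not called, a share near the background of 20% of all genes, with a median log2 fold change of 0.03. Ptprf, which encodes the receptor phosphatase LAR, was at 78.3, 66.7 and 84.7 CPM in DKO and at 211, 193 and 206 CPM in SKO. All DKO libraries were under 0.5 times any SKO library, and its log2 fold change was -1.41 ± 0.10 (edgeR adjusted p = 2.11e-05). Mapk8, the gene of the stress kinase JNK1 that can phosphorylate IRS proteins, averaged 23.3 ± 0.441 CPM in DKO and 32.7 ± 2.78 CPM in SKO (log2 -0.49 ± 0.09, edgeR adjusted p = 0.00421). Inpp5d, a lipid phosphatase gene best known from blood cells, averaged 12.5 ± 2.47 CPM in DKO and 6.91 ± 0.799 CPM in SKO (log2 0.86 ± 0.16, edgeR adjusted p = 0.00588). Grb10, an adaptor that restrains the insulin and IGF1 receptors, averaged 8.23 ± 1.33 CPM in DKO and 5.46 ± 0.893 CPM in SKO (log2 0.60 ± 0.17, edgeR adjusted p = 0.0371), a call lost in 4 of the 6 fits without 1 library. Trib3, an ER-stress-induced pseudokinase that can bind AKT, was at 51.2, 21.4 and 32.2 CPM in DKO and 13.4, 17.2 and 13.1 CPM in SKO without passing (log2 1.26 ± 0.35, edgeR adjusted p = 0.0615), although 6 of 13 other fits called it. Without DKO replicate 3, SKO replicate 1 or SKO replicate 2, 1 inhibitor was called higher.

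Targets of FOXO1 and insulin were called at about the rate of all genes. Of 21 listed genes, all tested, 1 was higher, Igfbp1, 4 were lower and 16 were not called, against a background of 20% of all genes called, with a median log2 fold change of -0.03. The list pools genes that FOXO1 induces with lipogenic genes, which need not move alike. Its count and median therefore give no direction for either kind. Pck1 and G6pc, the gluconeogenic genes that FOXO1 induces together with Igfbp1, were not called. Pck1 was at 1706, 4763 and 4179 CPM in DKO and 2192, 2209 and 3027 CPM in SKO, and G6pc at 242, 490 and 403 CPM in DKO and 412, 287 and 245 CPM in SKO. DKO replicate 1, the lowest DKO library for Igfbp1 and Foxo1, was the lowest of all libraries for Pck1 and G6pc as well. Without it Pck1 was called higher (log2 0.85, edgeR adjusted p = 0.00515), against log2 0.52 ± 0.39 with it (0.404). Of the 21 listed genes, 3 were called higher without DKO replicate 1 and 0 without DKO replicate 3, SKO replicate 2 or SKO replicate 3, and 2 were called lower without SKO replicate 2.

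The 4 lower genes of the list were Srebf1, Acly, Fasn and Sesn3. Srebf1, the gene of the lipogenic factor SREBP-1, was at 87.5, 91.7 and 84.6 CPM in DKO and 209, 268 and 255 CPM in SKO (log2 -1.47 ± 0.10, edgeR adjusted p = 2.11e-05). Acly and Fasn, lipogenic enzyme genes, had log2 fold changes of -0.51 ± 0.11 and -0.48 ± 0.14 (edgeR adjusted p = 0.0108 and 0.0423), and the call of Fasn ended in 8 of 13 other fits (edgeR adjusted p up to 0.152). Sesn3, a FOXO target that acts on mTORC1 signalling, averaged 38.1 ± 1.39 CPM in DKO and 49.0 ± 4.28 CPM in SKO (log2 -0.37 ± 0.08, edgeR adjusted p = 0.0123), with its call ended by total counts and without SKO replicate 2 or 3.

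**Figure D4:**
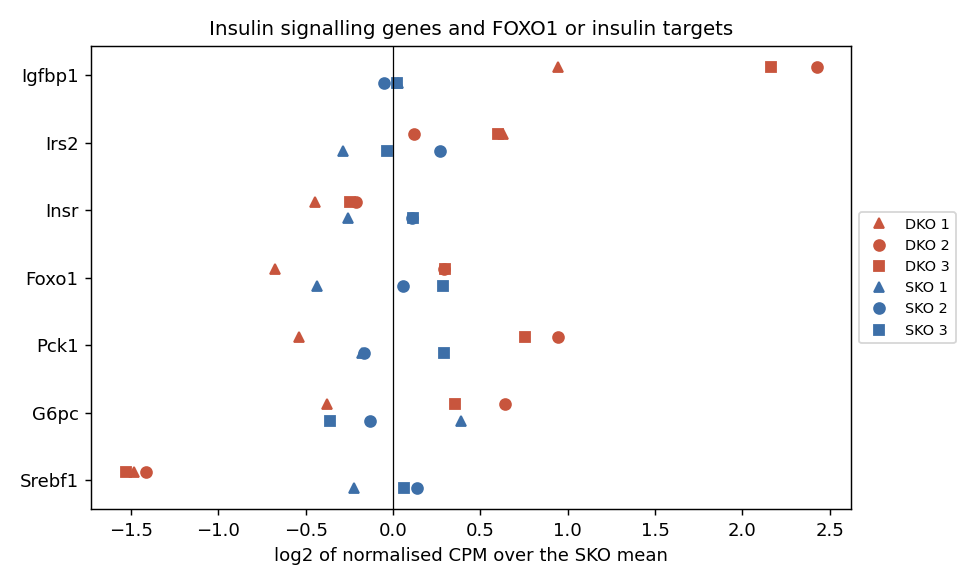
Log2 of normalised CPM over the SKO mean for 4 members and 3 FOXO1 or insulin target genes, with DKO in red and SKO in blue and a marker shape for each replicate. Igfbp1 lies right of SKO and Srebf1 left of it in all 3 DKO libraries, while Foxo1, Pck1 and G6pc have DKO replicate 1 left of the other DKO libraries.

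Beyond the members, the IGF system list held 4 lower genes, which encode a carrier subunit, 2 receptors and a protease. Of 15 further genes, 9 were tested, 2 were higher, 4 lower and 3 not called, against a background of 20% of all genes called, with a median log2 fold change of -0.31 over the 9. Igf1 itself was not called, at 455, 515 and 501 CPM in DKO and 475, 500 and 579 CPM in SKO (log2 -0.08 ± 0.10, edgeR adjusted p = 0.64). Igfals, which encodes the acid-labile subunit that joins IGF1 and IGFBP3 in serum, was at 95.8, 87.1 and 95.5 CPM in DKO and 124, 128 and 141 CPM in SKO (log2 -0.50 ± 0.08, edgeR adjusted p = 0.00254). Ghr, the growth hormone receptor gene, averaged 419 ± 58.7 CPM in DKO and 655 ± 22.9 CPM in SKO (log2 -0.65 ± 0.11, edgeR adjusted p = 0.00444). Igf2r, whose protein clears IGF2, averaged 42.2 ± 8.78 CPM in DKO and 73.7 ± 5.71 CPM in SKO (log2 -0.80 ± 0.15, edgeR adjusted p = 0.00817).

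Among proteases known to cleave IGF-binding proteins the calls went both ways. Adam9 was at 65.8, 62.6 and 69.1 CPM in DKO and 105, 113 and 109 CPM in SKO (log2 -0.73 ± 0.07, edgeR adjusted p = 0.000167). The 2 higher genes, Htra1 and Mmp7, were named after their values were seen. Htra1 was at 4.33, 3.18 and 2.70 CPM in DKO and 2.10, 1.65 and 2.08 CPM in SKO, and Mmp7 at 3.53, 0.733 and 0.882 CPM in DKO and 0.318, 0 and 0.0563 CPM in SKO. Their edgeR adjusted p was 0.0376 and 0.0475, and each lost its call in 4 of the 6 fits without 1 library. With the members in the list, 5 genes were called higher, and 2 were on leaving out DKO replicate 3 or any one SKO library. The 6 genes that did not pass the filter, among them Igf2, Pappa and Stc2, were at most 0.631 CPM in any library.

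Markers of other cell types were measured beside the binding proteins that such cells are known to make. Stellate and fibroblast markers, led by Dcn and Colec11, were called in 9 of 12 genes, each higher in DKO, with summed CPM of 1081, 759 and 832 in DKO and 460, 523 and 515 in SKO. Kupffer and macrophage markers, led by C1qb and Cd5l, were called in 5 of 10, each higher in DKO, at 1238, 812 and 1101 CPM in DKO and 763, 601 and 700.0 CPM in SKO. Cholangiocyte markers, led by Spp1 and Epcam, were called in 4 of 8, each higher in DKO, at 203, 123 and 132 CPM in DKO and 74.9, 61.7 and 62.4 CPM in SKO. Lymphocyte markers, led by Cd79b and Ptprc, were called for 0 of 7 tested by edgeR, for 1 by DESeq2 and for 0 by limma-voom, with 1 at an unadjusted edgeR p under 0.05, at 26.0 to 42.0 CPM in DKO and 19.2 to 27.2 CPM in SKO. Among endothelial markers 1 of 12, Vwf, was called and was higher (log2 0.41), with sums that overlapped between the groups, and among hepatocyte markers 3 of 10, Alb, Apoa1 and Ttr, were called and were lower (log2 -0.89, -0.78 and -0.53). These markers were read against a background of 20% of all genes called, and those 4 were named after their values were seen. Leading genes were picked by level per kilobase, and of these Colec11 and Cd5l were not called (edgeR adjusted p = 0.0785 and 0.072). C1qb lost its call in 4 fits without 1 library (edgeR adjusted p up to 0.0901) and Epcam in 2 (up to 0.0619). Dcn and Spp1 were called in all 13 other fits. The call of Vwf ended on leaving out any library but SKO replicate 1 (edgeR adjusted p up to 0.153), that of Ttr on leaving out any but DKO replicate 2 or SKO replicate 3 (up to 0.186), and those of Alb and Apoa1 ended without SKO replicate 2 (edgeR adjusted p = 0.0503 and 0.0749), as did that of Apoa1 without SKO replicate 3.

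Igfbp7 and the stellate, Kupffer, cholangiocyte and lymphocyte sums share their order in DKO, with replicate 1 on top. For Igfbp3 the DKO replicates 1 and 2 were level, at 104 CPM each, and replicate 3 was highest at 111 CPM. The cholangiocyte sum is mostly Spp1, at 175, 107 and 119 CPM in DKO. The lymphocyte sum is mostly Ptprc, at 32.2, 19.4 and 27.4 CPM in DKO. The order of either sum is thus largely that of a single gene. Igfbp5 moved the other way from the stellate sum in every DKO library. The hepatocyte sum was lower in DKO, as was Igfbp2, and higher Igfbp1 stood beside it in the same libraries. The part of cell makeup in the changes of the binding protein genes was not tested.

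**Figure D5:**
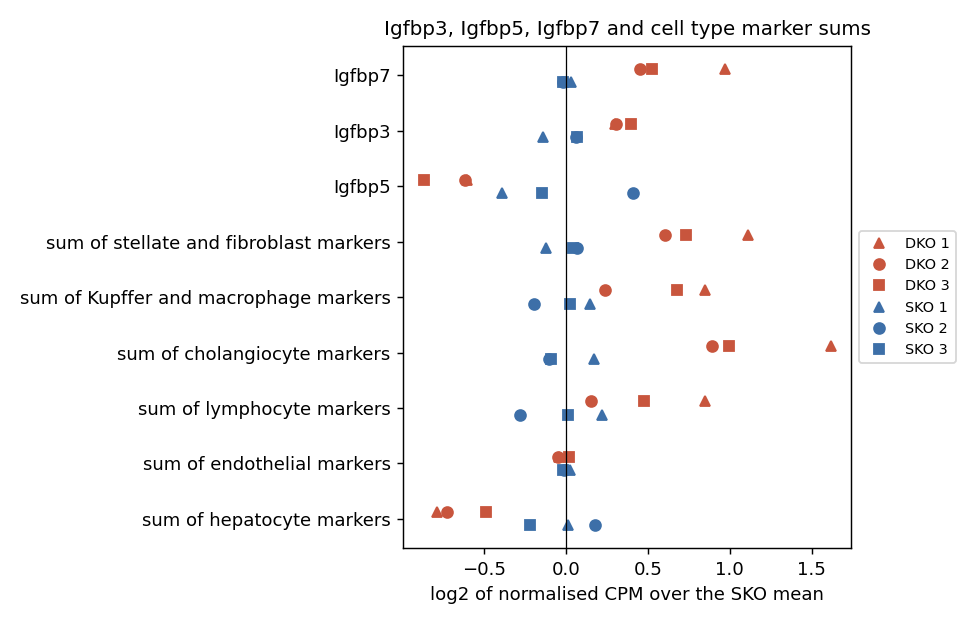
Log2 of normalised CPM over the SKO mean for Igfbp7, Igfbp3 and Igfbp5 and for the summed markers of 6 cell types, with DKO in red and SKO in blue. Igfbp7 and the stellate, Kupffer and cholangiocyte sums lie right of SKO in all DKO libraries, the endothelial sums overlap (593 to 620.2 CPM in DKO, 605 to 624 CPM in SKO), and Igfbp5 and the hepatocyte sum lie left.

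For each called member the 3 genes of most similar profile were found among the 8222 genes that averaged 10 CPM or more, by the mean absolute difference in centred log2(CPM + 1) over the 6 libraries. Nearest to Igfbp1 were the metallothionein genes Mt1 and Mt2 (0.325 and 0.342) and the zinc-finger transcription factor gene Zbtb16 (0.342). Mt1 was at 518, 790 and 661 CPM in DKO and 208, 174 and 286 CPM in SKO, so that DKO replicate 1 was again the lowest DKO library. Nearest to Igfbp7 were Cavin1, a caveolar coat gene, 1700017B05Rik and Cbr1 (0.0315, 0.0385 and 0.0468), and Cavin1 was at 19.5, 12.9 and 13.5 CPM in DKO and 9.60, 9.88 and 9.18 CPM in SKO. Nearest to Igfbp2 were Fuom, Eif4a2 and Slc46a1 (0.0275, 0.0307 and 0.035), to Igfbp3 Syngr2, Hs1bp3 and Serinc5 (0.0325, 0.0341 and 0.0379), and to Igfbp5 Wipi1, Gmppb and 1700001L05Rik (0.0722, 0.0989 and 0.108). The distance for Igfbp1 was thus about 10 times that for Igfbp2, Igfbp3 and Igfbp7. It is not scaled to the size of a gene's own change, which among the members was largest for Igfbp1. The larger distance therefore does not show that the pattern of Igfbp1 is less shared. Likeness over 6 libraries that fall into 2 groups is a description and carries no test.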

How the data were processed

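The authors deposited raw read counts, whole numbers for 54232 Ensembl genes, in 1 file per library. Tools listed in the submitters' processing notes are STAR, HTSeq 0.6.1p1, cutadapt 1.13 and DESeq2, with the build mm10. Their roles, the annotation release and the strand setting were not given in the sources used here. Symbols, positions and exon-union lengths came from GENCODE M21, on the same assembly, which matched 54165 identifiers. Libraries were grouped by the genotype label. Replicate numbers follow accession order and pair nothing. Chi-square per degree of freedom between replicates was 10.2 to 29.4, so none was counted as a repeat.

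Counts were tested in edgeR 4.0.16 (R 4.3.3): filterByExpr, TMM factors (1.05 to 1.13 in DKO, 0.903 to 0.951 in SKO), robust glmQLFit and glmQLFTest, Benjamini-Hochberg over 13986 genes. SE is the log2 fold change over the root of F, and intervals use the moderated degrees of freedom. On simulated counts of these genes, 77% of changes of 1 and 96% of changes of 2 on the log2 scale were recovered, and 9 of 182 calls were false. Each simulated gene had the spread typical of its level, and far fewer genes changed than were called in the data. These rates therefore do not hold for genes of wider spread, such as Igfbp1 and Foxo1. Alternatives were other scalings, no filter, DESeq2 1.42.0, limma-voom 3.58.1, non-robust fits and leaving out each library. A count of 3 equals 0.126 to 0.191 CPM, a floor that covers counting error only. The SEs and intervals also include the spread between libraries.

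The members and lists were chosen with earlier results of these data known. Named beside the members were Xbp1 and Nr1h4, up to 4 called genes of smallest p of each pathway list, 6 fixed genes, the 2 leading genes of each marker list and the 3 nearest profiles of called members; others are said to be named after seeing values. Some genes of the pathway lists are not reported here, and the lists were counted without them. Promoter windows were credited to RefSeq (GRCm38.p6).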

Additional observations from a re-analysis of the deposited data

How the results depend on the processing

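No paired analysis was possible because the labels number no library across the groups. With total counts alone the median over all genes tested moved to 0.226 (log2), and 3859 genes were called higher and 538 lower, with 87.8% of calls higher against 51.6% with TMM and 65.3% with upper-quartile factors. Without 1 library, genes called higher numbered 674 to 1569 and lower 745 to 1200. Without DKO replicate 3, SKO replicate 2 and SKO replicate 3 the higher calls were 942, 674 and 894 and the lower calls 889, 745 and 890. Called members numbered 1 to 3 higher and 1 to 3 lower without 1 library, and 1 lower with upper-quartile factors or total counts. For the receptor cascade the higher calls were 2 with upper-quartile factors, 5 with total counts, 2 without a filter and 1 to 3 without 1 library, and the lower calls were 1, 0 and 4 in those scalings and filter, 1 with DESeq2, 1 with limma-voom and 1 to 3 without 1 library. Inhibitors called higher were 6 with total counts and 1 to 3 without 1 library. FOXO1 and insulin targets were 4 higher and 2 lower with total counts, 2 higher with DESeq2, limma-voom or non-robust fits, and 0 to 3 higher and 2 to 4 lower without 1 library. IGF system genes called higher were 2 to 5 without 1 library. Directions turned only for genes that were not called. Upper-quartile factors and total counts gave Irs1 0.0042 and 0.17, Nr1h4 0.044 and 0.20, Tns3 0.041 and 0.20, and Oit3 0.0018 and 0.16 on the log2 scale. Total counts gave Igf1 0.14 and Clec4g 0.061. Limma-voom gave Foxo1 -0.0075 and DESeq2 gave Igfbp4 -0.0041. Without 1 library Irs1 ranged from -0.23 to 0.14, Foxo1 from -0.14 to 0.29, Igfbp4 from -0.067 to 0.054, Nr1h4 from -0.066 to 0.026, Igf1 from -0.14 to 0.0074, Tns3 from -0.16 to 0.050 and Oit3 from -0.11 to 0.040. Over the named genes that were tested and the 13 alternatives, 698 values kept direction and call, 103 lost and 30 gained a call and 27 turned. A count of 0 allows up to 0.191 CPM in the shallowest library. The cause of these shifts was not tested.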
